A study of Mus musculus with 2 samples.

Results

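The 38 HOX genes examined here are all rows of the deposited gene tables whose Ensembl identifier maps to a listed member of clusters A to D, out of 43346 Ensembl genes measured. Total RNA-seq was made from the intestine of 2 newborn pups of 1 litter (pup 1 and pup 2 here), both of strain B6NCrl, both 0 days old, and both untreated as far as the labels say. RNA longer than 200 nt was used, starting from 10 ng per library, and sex was not collected. The pups form 1 group with n = 2, so that the study holds no treated or mutant group, and no source used here says which gut segments were taken.

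HOX genes encode homeodomain transcription factors that give cells their position along the head-to-tail axis. Mammals carry 4 clusters that arose by duplication, and genes at the same place in different clusters form a paralogue group with a nearly identical homeodomain. Low-numbered groups are active early and towards the head, high-numbered groups late and towards the tail. In the gut they act mostly in the mesenchyme and the enteric neurons, and the highest-numbered groups are known as markers of the caecum, colon and hindgut.

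In these files cluster A had 10 members on chromosome 6 (52162417 to 52260880), cluster B had 10 on chromosome 11 (96194316 to 96368256), cluster C had 9 on chromosome 15 (102921103 to 103036852) and cluster D had 9 on chromosome 2 (74668310 to 74765142). All positions are on mm10 (GRCm38). The libraries held 44568098 and 34797495 counts in Ensembl genes, of which the HOX genes took 5575 and 3870, or 125 and 111 CPM (counts scaled to the library total). Marker lists of the labelled tissue were each detected in full, with 7 genes for epithelium, 9 for fibroblasts, 9 for smooth muscle, 11 for enteric neurons and glia, 6 for endothelium and 6 for blood cells. No gene of these lists was over 2-fold apart between the pups, and the lists' median ratios of pup 1 over pup 2 ran from 0.819 (blood cells) to 1.08 (epithelium).

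Because paralogues are so alike in the homeobox, 3 members of group 9 are shown over 90 coding bases of it that end within the codons of the DNA recognition helix. This group is shown because its genes differed from each other in the ratio between the pups, a comparison that needs reads to be told apart by sequence. Capitals mark the bases that are not identical in all 3 genes.
Hoxb9 (chr11:96274724-96274813, plus strand): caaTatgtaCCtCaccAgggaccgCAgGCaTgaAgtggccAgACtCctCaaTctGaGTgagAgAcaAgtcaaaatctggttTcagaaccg
Hoxc9 (chr15:102983995-102984084, plus strand): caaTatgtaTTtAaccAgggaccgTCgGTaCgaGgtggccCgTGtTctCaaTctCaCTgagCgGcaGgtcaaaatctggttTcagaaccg
Hoxd9 (chr2:74699280-74699369, plus strand): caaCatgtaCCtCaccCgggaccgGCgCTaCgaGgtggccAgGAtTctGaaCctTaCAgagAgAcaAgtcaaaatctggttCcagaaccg
All 3 windows are coding exon sequence, taken from the GENCODE M21 transcripts. They shared 66 of 90 bases in all 3 genes, and pairs were identical at 72 to 73 of 90. Over the full transcripts, none of the 40 same-group pairs shared an exact run as long as the read length of 100 bases implied by the deposited effective lengths. The longest such run was 50 bases. A perfectly matched read of that length therefore belongs to 1 paralogue only. Among the 663 other pairs of members 2 did share such a run, both between genes of 1 cluster: Hoxd3 and Hoxd4 over 388 bases and Hoxc5 and Hoxc10 over 168 bases.

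Expression was centred on the middle of the clusters. Group 5 had the highest summed level, 26.8 and 27.6 TPM (a level corrected for gene length and library size) in pups 1 and 2, and group 7 followed with 12.1 and 11.3 TPM. Groups 1, 12 and 13 summed to at most 0.09 TPM in either pup. By cluster, the summed level was 34.3 ± 0.700 TPM (SD, n = 2) for B, 31.9 ± 5.15 TPM for A, 13.2 ± 0.212 TPM for C and 6.81 ± 1.87 TPM for D. A and B did not differ beyond their spread: A was the higher of them in pup 1 (35.6 against 33.8 TPM) and the lower in pup 2 (28.3 against 34.8 TPM).

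**Figure D1:**
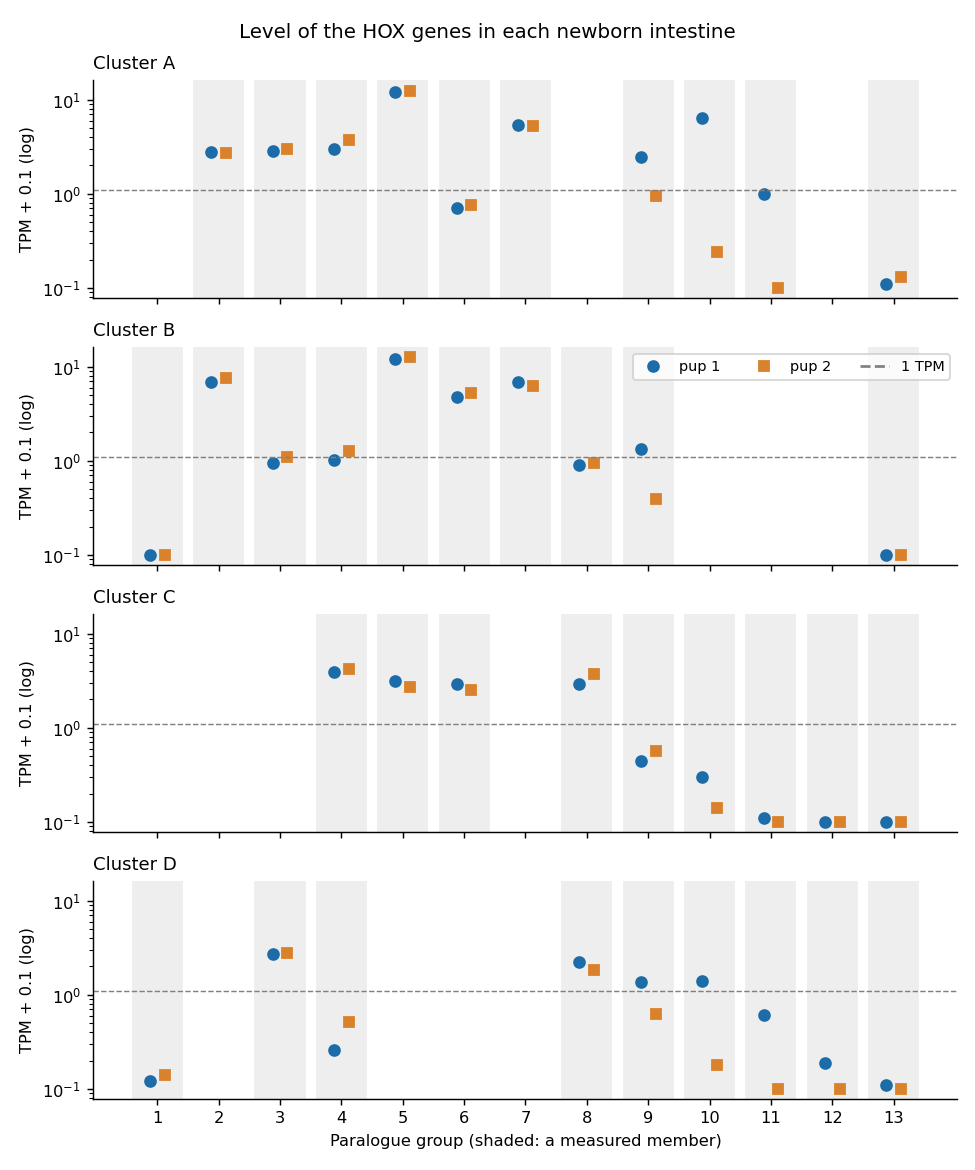
Level of each HOX gene (TPM + 0.1, log axis) against paralogue group, 1 panel per cluster, with a circle for pup 1 and a square for pup 2, and shading where a member was measured. The marks of both pups lie close together in groups 2 to 8 except for Hoxd4, and part at Hoxb9 and in groups 9 to 11 of clusters A and D, where Hoxa10 stood at 6.23 TPM in pup 1 and 0.14 TPM in pup 2.

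Detected here means 1 TPM or more in both pups. That held for 15 of the 38 genes, all of them among the 22 of groups 1 to 8, against 59.1% of 21474 protein-coding genes. Under 0.1 TPM in both pups were 9 members, 7 of them among the 16 of groups 9 to 13, against 25.0% of protein-coding genes. The other 14 lay between. Cluster A had 5 detected members, clusters B and C had 4 each and cluster D had 2.

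The highest members were Hoxb5 (chromosome 11, 96303336 to 96306121) and Hoxa5 (chromosome 6, 52201754 to 52204587), which pattern gut mesenchyme and, for Hoxb5, migrating enteric neural crest. Hoxb5 stood at 11.9 and 12.7 TPM in pups 1 and 2, and Hoxa5 at 11.9 and 12.3 TPM. Neither gene was higher than the other beyond the spread between the pups, and both sat close to the median of the detected protein-coding genes, 11.97 and 12.4 TPM. Their cluster C partner, Hoxc5, stood at 3.04 and 2.61 TPM, of which its protein-coding transcript gave 1.58 and 2.15 TPM.

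Below them came Hoxb2 with 6.74 and 7.54 TPM, Hoxb7 with 6.79 and 6.09 TPM, Hoxa7 with 5.29 and 5.21 TPM and Hoxb6 with 4.64 and 5.20 TPM. The ranges of Hoxb2 and Hoxb7 overlapped, so that their order is not settled here. Hoxc4 (3.82 and 4.15 TPM), Hoxa4 (2.86 and 3.59 TPM) and Hoxc8 (2.80 and 3.66 TPM) followed. Hoxa3, Hoxa2, Hoxd3 and Hoxc6 all had means between 2.61 and 2.82 TPM, which do not differ beyond their spread, and Hoxd8 was the lowest detected member with 2.15 and 1.74 TPM.

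Some members of the same groups stayed low in both pups. Hoxa6 had 0.61 and 0.66 TPM, Hoxb8 0.81 and 0.85 TPM, Hoxb3 0.85 and 0.99 TPM, and Hoxd4 0.16 and 0.41 TPM. Hoxb4 lay on the threshold, with 0.92 TPM in pup 1 and 1.18 TPM in pup 2. Group 1, which is known for the hindbrain, was nearly silent: Hoxb1 had no read in either pup and Hoxd1 had 1 and 2.

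Groups 12 and 13, the terminal genes known from the hindgut, genital tubercle and digits, had hardly any reads. Hoxb13, Hoxc12 and Hoxc13 had 0 in both pups. Hoxa13 had 1 and 2, Hoxd13 had 1 and 0, and Hoxd12 had 8 and 0. A count of 0 allows up to 3 counts, or 0.0673 and 0.0862 CPM in pups 1 and 2, so that lower levels were not detectable at this depth.

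Clusters were compared at equal group by the log2 difference of TPM + 0.1, and a pair was taken as apart where both pups differed by over 2-fold the same way. The folds given for these pairs are on that scale, which understates the differences of low genes. Of 40 pairs 13 were apart, and all 13 lay among the 21 pairs of groups 1 to 8. No cluster was the higher one throughout. A stood above B in 2 pairs (Hoxa3 over Hoxb3, Hoxa4 over Hoxb4) and below it in 2 (Hoxa2 under Hoxb2, Hoxa6 under Hoxb6). B stood above C in 1 pair and below it in 2, and above D in 1 and below it in 1.

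Group 2, which patterns the hindbrain and branchial arches, favoured cluster B: Hoxb2 was above Hoxa2 by 2.43 and 2.81-fold in the respective pups. Group 3 had the reverse order. Hoxa3 was 2.97 and 2.76-fold above Hoxb3, and Hoxd3 was 2.84 and 2.57-fold above it when all transcripts were taken, an order that turned with coding transcripts alone. Hoxa3 and Hoxd3 themselves were within 1.04 and 1.08-fold of each other.

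Among groups 1 to 8, group 4 had the pairs farthest apart, and here clusters A and C led. Hoxc4 exceeded Hoxd4 by 15.1 and 8.33-fold, a mean log2 difference of 3.49 ± 0.60 (SD, n = 2). Hoxa4 exceeded Hoxd4 by 11.4 and 7.24-fold, and Hoxb4 lay between, 2.90 and 2.88-fold under Hoxa4. Hoxa4 and Hoxc4 were not apart, with a mean log2 difference of -0.30 ± 0.14. All 5 pairs of this group that were apart involved Hoxb4 or Hoxd4.

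In group 5 the near equality of Hoxa5 and Hoxb5 (log2 0.01 in pup 1 and -0.05 in pup 2) contrasted with Hoxc5, which was 3.82 and 4.56-fold below Hoxa5. The mean log2 difference of Hoxa5 over Hoxc5 was 2.06 with all transcripts and 2.65 with coding ones. Group 6 had Hoxb6 on top: Hoxa6 was 6.68 and 6.97-fold below it and 4.10 and 3.29-fold below Hoxc6. Hoxb6 and Hoxc6 differed by 1.63 and 2.12-fold and were not apart. In group 7 Hoxa7 and Hoxb7 differed by at most 1.28-fold. In group 8 Hoxb8 was the low one, 3.19 and 3.96-fold under Hoxc8.

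**Figure D2:**
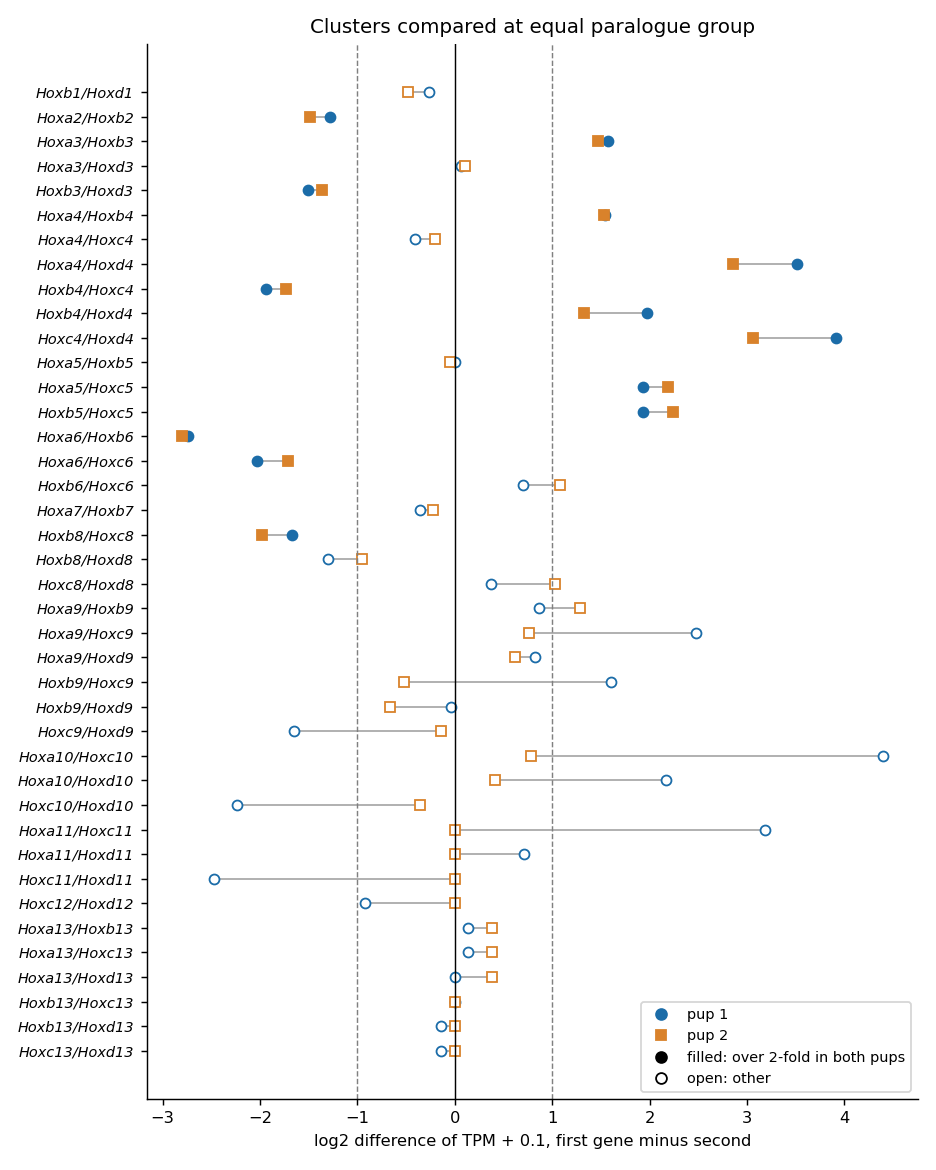
log2 difference of TPM + 0.1 for each pair of clusters at equal paralogue group, the first gene minus the second, with a circle for pup 1, a square for pup 2 and filled marks where both pups exceeded 2-fold the same way. All 13 filled pairs lie in groups 2 to 8, and the grey lines joining the pups lengthen in groups 9 to 11.

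Along each cluster, adjacent genes often differed sharply, in both directions. Of 34 neighbour pairs 15 were over 2-fold apart in both pups. Among neighbours that both had 10 or more counts in each pup, the steepest step was from Hoxa5 to Hoxa6. On that scale Hoxa5 was 16.9-fold above Hoxa6 in pup 1 and 16.3-fold above it in pup 2. Hoxa7, the next gene, was again 7.59 and 6.99-fold above Hoxa6. In cluster B, Hoxb2 was 7.10-fold above Hoxb3 on average, Hoxb5 was 11.7 and 9.99-fold above Hoxb4, and Hoxb7 was 7.57 and 6.52-fold above Hoxb8. In cluster C the 1 pair that was apart in both pups was Hoxc8, 6.59 and 6.71-fold above Hoxc9. In cluster D the low Hoxd4 lay between Hoxd3 and Hoxd8, 10.4 and 5.49-fold under the first and 8.65 and 3.61-fold under the second.

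Between the 2 pups, the HOX genes that differed over 2-fold were all of groups 9 to 13 and all higher in pup 1. To compare them, counts were scaled to the library, and the pup 1 over pup 2 ratio was given an exact 95% interval. A gene was called where that interval lay wholly beyond 2-fold and its summed count was 10 or more. With 2 animals there is no replicate of either pup, so that these intervals cover counting error only, and PCR copies are counted as separate molecules. Of the 29 HOX genes with enough counts 6 were over 2-fold higher in pup 1, against 0.367% of 19088 genes, and 0 were over 2-fold higher in pup 2, against 0.430% (0.796% of genes in either direction).

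The 6 were Hoxa9, Hoxa10, Hoxa11, Hoxb9, Hoxd10 and Hoxd11, all among the 9 tested members of groups 9 to 13. Among the 20 tested members of groups 1 to 8, 0 were called, and their ratios ran from 0.441 to 1.33-fold with a median of 0.965, beside a median of 1.00 over all genes tested. In sum, groups 1 to 8 had 4605 and 3760 expected counts, a ratio of 0.982 (95% interval 0.940 to 1.03). Groups 9 to 13 had 970 and 110 expected counts, a ratio of 7.07 (95% interval 5.80 to 8.69). Without Hoxa10, the member with the most counts, that ratio was 4.57 (95% interval 3.71 to 5.69). Groups 9 to 13 made up 16.0% of the HOX level in TPM in pup 1 and 2.94% in pup 2.

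**Figure D3:**
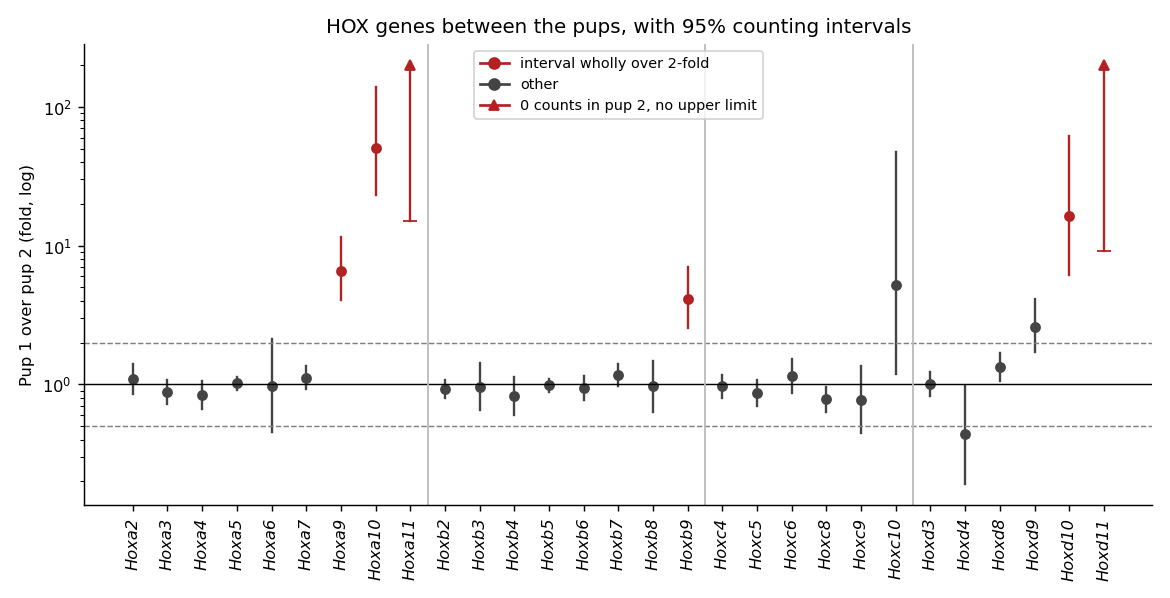
Ratio of pup 1 over pup 2 (log axis) with its exact 95% counting interval for each HOX gene with a summed count of 10 or more, in order of cluster and group, with grey lines between clusters and dashed lines at 2-fold. The 6 genes in red, whose intervals lie wholly beyond 2-fold, are all of groups 9 to 11 and all above the line, and triangles mark genes with 0 counts in pup 2.

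Group 9, which patterns the trunk and the kidney and limb fields, differed between clusters. Hoxa9 (chromosome 6, 52223100 to 52231089) had 148.37 expected counts in pup 1 and 18 in pup 2, a ratio of 6.59 (95% interval 4.03 to 11.4). Its TPM, 2.34 and 0.85, gave only 2.75-fold, as the effective length used for it was 1763 bases in pup 1 and 766 in pup 2. Hoxb9 (chromosome 11, 96271457 to 96276595) had 103 and 20 counts, a ratio of 4.13 (95% interval 2.54 to 7.04). Hoxd9 (chromosome 2, 74697727 to 74700208) had 94 and 29 counts, a ratio of 2.60 (95% interval 1.70 to 4.09), which lies above 1 but not wholly beyond 2-fold. Hoxc9 (chromosome 15, 102976439 to 102985099) had 28 and 29 counts, a ratio of 0.774 (95% interval 0.444 to 1.35).

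The differences between those ratios were compared by exact conditional odds ratios of the counts. The ratio of Hoxa9 was 8.40 times that of Hoxc9 (95% interval 3.93 to 18.5) and that of Hoxb9 was 5.27 times (95% interval 2.48 to 11.5). Hoxc9 had 0.300 times the ratio of Hoxd9 (95% interval 0.145 to 0.612). Hoxa9 had 2.53 times the ratio of Hoxd9 (95% interval 1.28 to 5.13), while Hoxa9 against Hoxb9 gave 1.59 (95% interval 0.759 to 3.37), an interval that holds 1. So at equal group the cluster C gene alone was not higher in pup 1, within counting error. On the TPM + 0.1 scale Hoxb9 stood 3.05-fold above Hoxc9 in pup 1 and 1.44-fold below it in pup 2. The order in pup 2 rests on 20 and 29 counts and is not settled here.

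Group 10, known from the lumbar axis, kidney and reproductive tract, held the gene with the highest measured ratio. Hoxa10 (chromosome 6, 52231197 to 52240854) had 377 counts in pup 1 and 6 in pup 2. In pup 1 it was the most abundant HOX gene after Hoxa5, Hoxb5, Hoxb7 and Hoxb2, and in pup 2 its 0.14 TPM left it below Hoxd4. The ratio was 50.4 (95% interval 22.9 to 138). Hoxd10 (chromosome 2, 74691924 to 74695105) had 80.82 and 4 counts, a ratio of 16.2 (95% interval 6.10 to 61.0). Hoxc10 (chromosome 15, 102966796 to 102971893) had 13 and 2 counts, a ratio of 5.21 (95% interval 1.18 to 47.6). The 3 ratios could not be told apart at this depth: Hoxa10 against Hoxd10 gave 3.09 (95% interval 0.627 to 13.4).

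In group 11, known from kidney, forelimb and uterus, reads came from pup 1 only. Hoxa11 (chromosome 6, 52242106 to 52245810) had 70.68 expected counts in pup 1 and 0 in pup 2. Set against a floor of 3 counts in the library of pup 2, this is at least 18.9-fold higher in pup 1, and the exact 95% interval of the ratio, which also covers counting error in pup 1, starts at 15.03. Hoxd11 (chromosome 2, 74679557 to 74687016) had 43.79 and 0, at least 11.7-fold higher against that floor, with an interval that starts at 9.17. Hoxc11 had 1 and 0. Both called genes overlap other annotated genes, and the estimator divided reads among them. Hoxa11, Hoxa11os on the other strand and Gm27543 (3.47 counts in pup 1) came to 118 counts together in pup 1, and to 0 in pup 2. Hoxd10, Hoxd11 and Gm28309 came to 131 and 4 counts together. No source used here says whether counting kept the strand, but at Hoxa11 this division of reads ran across both strands. Hoxa11 reads therefore cannot be told apart from Hoxa11os reads, and both genes were at 0 in pup 2.

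Within a cluster the change set in between adjacent genes. In cluster A it lay between Hoxa7 and Hoxa9, where the ratio of Hoxa7 was 0.170 times that of Hoxa9 (95% interval 0.0945 to 0.291), and it widened again at Hoxa10. Cluster B changed between Hoxb8 and Hoxb9 (0.236, 95% interval 0.119 to 0.455). Cluster D changed in 2 steps, between Hoxd8 and Hoxd9 (0.511, 95% interval 0.306 to 0.838) and between Hoxd9 and Hoxd10 (0.161, 95% interval 0.0395 to 0.487). In cluster C no change was detectable between Hoxc8 and Hoxc9 (1.01, 95% interval 0.555 to 1.83). The ratios of Hoxc9 and Hoxc10 did differ (0.152, 95% interval 0.0153 to 0.765). That step rests on 13 and 2 counts of Hoxc10, which was not called. Hoxc10 also shares an exact run of 168 bases with Hoxc5, within which reads of 100 bases match both genes.

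Summed over groups 9 to 13, cluster A had 9.48 and 1.02 TPM in pups 1 and 2, a count ratio of 18.4 (95% interval 12.4 to 28.4), or 8.82 without Hoxa10. Cluster D had 3.20 and 0.60 TPM, a ratio of 5.54 (95% interval 3.83 to 8.24), or 26.9 without Hoxd9. Cluster B, here Hoxb9 and the silent Hoxb13, had a ratio of 4.13. Cluster C had 0.55 and 0.50 TPM, a ratio of 1.09 (95% interval 0.667 to 1.79), which rested on Hoxc9: without it the ratio was 5.61 (95% interval 1.29 to 50.9).

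Genes of groups 1 to 8 moved little, and 3 had intervals that excluded 1 without being called. Hoxc8 was lower in pup 1 (0.781, 95% interval 0.634 to 0.961), as was Hoxd4 with 11 and 19.71 counts (0.441, 95% interval 0.191 to 0.965). The Hoxd4 counts are a share of 328 and 275 that are divided with Hoxd3, Hoxd3os1 and Gm28230. The interval does not cover that division, so a difference of Hoxd4 itself is not settled here. Hoxd8, with 192 and 116 counts, was higher in pup 1 (1.33, 95% interval 1.05 to 1.69). The most precise ratios were those of Hoxb5, 0.985 (95% interval 0.886 to 1.10), and Hoxa5, 1.02 (95% interval 0.911 to 1.13).

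A few genes known from certain stretches of the gut also differed between the pups, while most listed for the small intestine and colon did not pass the rule. Of 13 tested genes listed for colon and caecum epithelium 2 were over 2-fold higher in pup 1. Car1, a carbonic anhydrase of colonic surface cells, had 235 and 0 counts, at least 62.8-fold higher against the floor with an interval that starts at 50.7, and Cyp2c55 had 704 and 131, a ratio of 4.31 (95% interval 3.57 to 5.23). The list as a whole summed to 426 and 432 TPM, with a median ratio of 1.14. Mettl7b (186 and 201 TPM) and Prr15l (110 and 113 TPM) made up most of that sum, which therefore says little about the other members. Without a call, Aqp8 (1.41), Insl5 (1.29) and Scnn1b (2.89) had intervals wholly above 1. That of Slc26a3 (0.869) lay wholly below 1. Of 8 ileal genes 1 was called, the bile acid transporter Slc10a2, with 72 and 13 counts. The ileal list summed to 1275 and 1396 TPM, with a median ratio of 0.973. Without a call, Fabp6 (1.51) and Clec2h (1.07) had intervals wholly above 1. Those of Slc51a (0.886), Slc51b (0.892), Cubn (0.818) and Amn (0.907) lay wholly below 1. In bulk tissue, fewer cells of a type and less RNA per cell cannot be told apart.

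In the other direction, 6 of 10 tested stomach genes were over 2-fold higher in pup 2, and 0 were over 2-fold higher in pup 1 by the interval rule. Atp4a, a subunit of the parietal cell pump, went the other way with 34 and 10 counts, a ratio of 2.73 (95% interval 1.32 to 6.19). The list summed to 191 TPM in pup 1 and 533 TPM in pup 2. The gastrokines Gkn1 (155 and 761 counts) and Gkn2 (149 and 902 counts) and the stomach homeobox gene Barx1 (11 and 59 counts) were among the 6, with Tff1 (4.23-fold), Pgc (3.19-fold) and Muc5ac (1 and 12 counts). Atp4b, the other subunit of the pump, had no read in either pup. The 11 genes of the upper small intestine had 0 calls and a median ratio of 0.997. The part of these regional genes in the HOX difference was not tested, and the length of gut taken and the pup cannot be told apart.

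**Figure D4:**
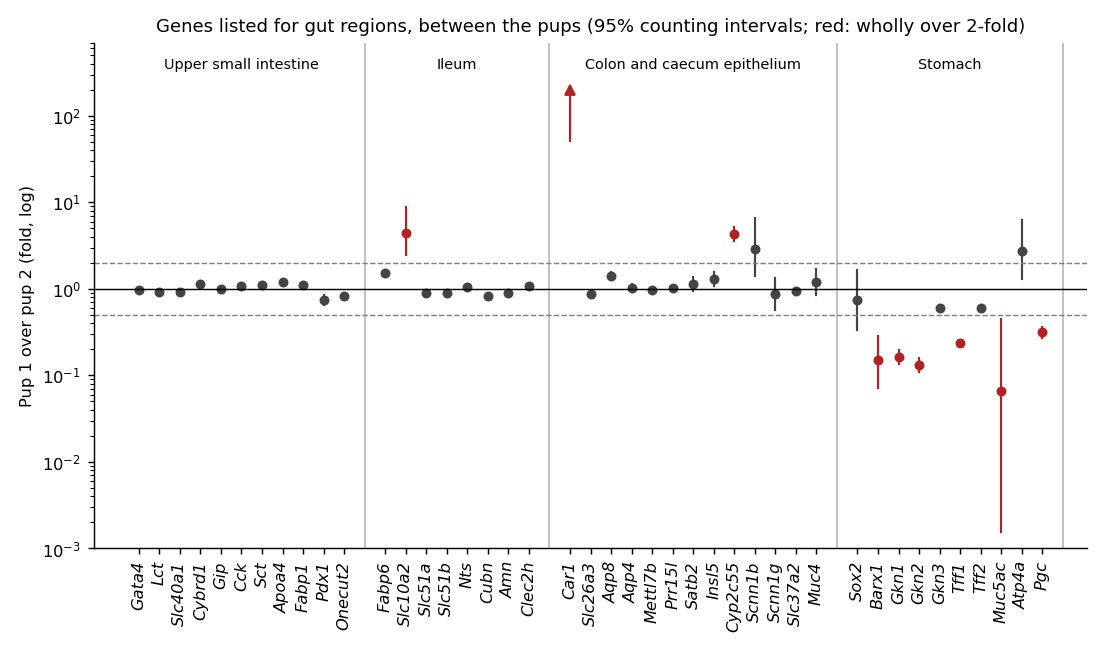
Ratio of pup 1 over pup 2 (log axis) with its exact 95% counting interval for genes listed for 4 regions of the gut, each with a summed count of 10 or more; red marks intervals wholly beyond 2-fold and the triangle a gene with 0 counts in pup 2. In red are 6 stomach genes below the line and Car1, Cyp2c55 and Slc10a2 above it, while the 11 genes of the upper small intestine stay inside the dashed lines.

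Tissues outside the gut that express posterior HOX genes were checked by their own markers. The 15 genes listed for kidney and reproductive tract summed to 3.83 and 4.43 TPM, with a median ratio of 0.551 over the 6 tested, of which Wt1 gave 3.12 and 3.17 TPM, and Pax2 and Emx2 had no read in either pup. In the limb and body wall list, Tbx4, Tbx5, Pax3 and Pax7 had no read in either pup, and the detected ones were Pitx1, Krt14 and Krt10. In the spinal cord list Olig2 had no read in either pup and the 7 genes summed to 2.07 and 2.02 TPM. The 5 urothelial genes summed to 3.21 and 2.53 TPM. The tested genes numbered 6 for kidney and reproductive tract, 4 for limb and body wall, 3 for spinal cord and 2 for urothelium. None of them was over 2-fold apart between the pups. So few genes cannot show whether such tissues differed, and their part in the HOX difference was not tested.

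Transcript use was taken from the deposited transcript tables, in which each share is the estimator's own division of reads. Of the 38 members 15 had 1 annotated transcript, all protein-coding, and 23 had 2 or more. A leading transcript was taken for 19 members with 2 or more transcripts, a count in both pups and a summed count of 10 or more. This leaves out Hoxa13, with 1 and 2 counts. Of the 19, 4 had a leading transcript that GENCODE does not label protein-coding, beside 9.51% of 11181 such genes overall. They were Hoxa7, Hoxa9, Hoxa10 and Hoxd3, where the lead is by the mean share of both pups. In Hoxa9 the lead differed between the pups: the protein-coding Hoxa9-201 led in pup 1 with 38.4% and 101.06 counts, and Hoxa9-204 led in pup 2 with 60.2%.

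Hoxa10 was led by Hoxa10-203, labelled a processed transcript, with 242.42 of its 377 counts in pup 1 and all 6 in pup 2. The first exon of Hoxa10-203 (chromosome 6, 52233197 to 52233324) lies downstream of the starts of both coding transcripts, at 52240854 for Hoxa10-201 and 52234939 for Hoxa10-202, on the minus strand. The coding transcripts had 134.58 counts in pup 1, of which Hoxa10-201 took 55.88 and Hoxa10-202 took 78.70, and 0 in pup 2. By coding transcripts alone the gene was thus at least 35.97-fold higher in pup 1 against the floor, with an interval that starts at 28.9.

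The promoter windows of 3 genes are shown because these genes mark the ends of this pattern: Hoxa5, high and equal in both pups, Hoxa10 at both of its coding starts, and Hoxd10. Each is the 250 bases before the start, from RefSeq on GRCm38.p6, and capitals mark CG pairs.
Hoxa5 (chr6:52204588-52204837, minus strand): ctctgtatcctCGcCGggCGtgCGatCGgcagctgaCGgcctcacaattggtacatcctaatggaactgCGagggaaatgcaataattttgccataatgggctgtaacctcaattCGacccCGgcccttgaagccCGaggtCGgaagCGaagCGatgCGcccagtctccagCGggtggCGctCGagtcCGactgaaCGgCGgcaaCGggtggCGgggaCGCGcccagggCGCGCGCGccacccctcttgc
Hoxa10 (chr6:52234940-52235189, minus strand): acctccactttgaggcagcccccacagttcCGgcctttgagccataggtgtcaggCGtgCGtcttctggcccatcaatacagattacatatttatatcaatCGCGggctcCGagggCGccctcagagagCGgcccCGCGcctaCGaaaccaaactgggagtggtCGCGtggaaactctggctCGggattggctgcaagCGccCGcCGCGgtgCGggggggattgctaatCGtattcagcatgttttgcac
Hoxa10 (chr6:52240855-52241104, minus strand): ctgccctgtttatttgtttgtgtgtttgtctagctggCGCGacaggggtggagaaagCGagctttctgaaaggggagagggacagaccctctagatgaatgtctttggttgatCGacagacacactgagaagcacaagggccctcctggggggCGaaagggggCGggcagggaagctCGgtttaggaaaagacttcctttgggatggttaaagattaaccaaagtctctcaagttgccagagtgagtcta
Hoxd10 (chr2:74691641-74691890, plus strand): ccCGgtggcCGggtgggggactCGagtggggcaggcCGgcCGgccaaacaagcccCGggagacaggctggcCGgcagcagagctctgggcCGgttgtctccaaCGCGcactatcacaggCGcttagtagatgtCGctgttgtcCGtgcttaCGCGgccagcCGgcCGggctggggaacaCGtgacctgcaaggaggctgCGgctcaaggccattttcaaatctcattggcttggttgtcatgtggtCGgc
None of these 4 windows overlaps an annotated exon. They held 28, 20, 7 and 20 CG pairs in that order, and 7.61%, 17.9%, 46.3% and 17.9% of all 32851 RefSeq windows of that length held at least as many. Across the 22 members with an entry (24 windows) the median was 12.5 CG pairs, beside 6 over all windows. On both strands, TTTATNG, the letters CDX and posterior HOX proteins are known to prefer, occurred in 2 of the 24 windows (Hoxb8 and Hoxd4) and in 9.81% of all. TGATNNAT, known for HOX with PBX, occurred in 4 of 24 (Hoxa2, Hoxb1, Hoxb8 and Hoxd11) and in 7.68% of all. The windows shown hold neither, which says only that these letters are not within them.

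Hoxd3 was led in both pups by Hoxd3-206, a retained-intron transcript of 1 exon (chromosome 2, 74745722 to 74748442) with 205.33 and 147.98 counts, 83.8% and 75.9% of the gene's TPM. Its coding transcripts had 0.42 and 0.66 TPM, against 2.60 and 2.70 TPM for the gene. By coding transcripts alone Hoxd3 was therefore no longer above Hoxb3: the mean log2 difference of Hoxb3 over Hoxd3 was -1.43 with all transcripts and 0.22 with coding ones. Hoxd3, Hoxd4, Hoxd3os1 and Gm28230 together came to 328 and 275 whole counts, so that these 4 overlapping genes also divide reads.

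In Hoxa7 the lead was Hoxa7-205, labelled for nonsense-mediated decay, with 31.0% and 35.2%, and the coding transcripts still gave 3.65 and 3.37 TPM. In Hoxa9 the coding transcripts had 1.05 TPM in pup 1 and 0.07 TPM in pup 2, with 105.11 and 6.13 counts, a ratio of 14.03 (95% interval 6.23 to 39.1). The mean share was highest for Hoxa9-204, a processed transcript with 4.68 and 5.14 counts. In Hoxc5 the processed transcript Hoxc5-202, whose first exon (chromosome 15, 102967443 to 102967608) lies in an exon of Hoxc10, had 27.07 and 6.57 counts. The coding transcript of Hoxc5 had 160.93 and 167.43 counts. Hoxb9 used Hoxb9-202 for 51.03 of 103 counts in pup 1 and for 0 of 20 in pup 2, where the authors' posterior mean shares gave it 22.4%.

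By coding transcripts alone, an alternative chosen after seeing the data, 14 members were detected rather than 15, as Hoxd3 dropped out, and 5 rather than 6 were over 2-fold higher in pup 1, as Hoxd11 kept only 7.36 counts there.

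**Figure D5:**
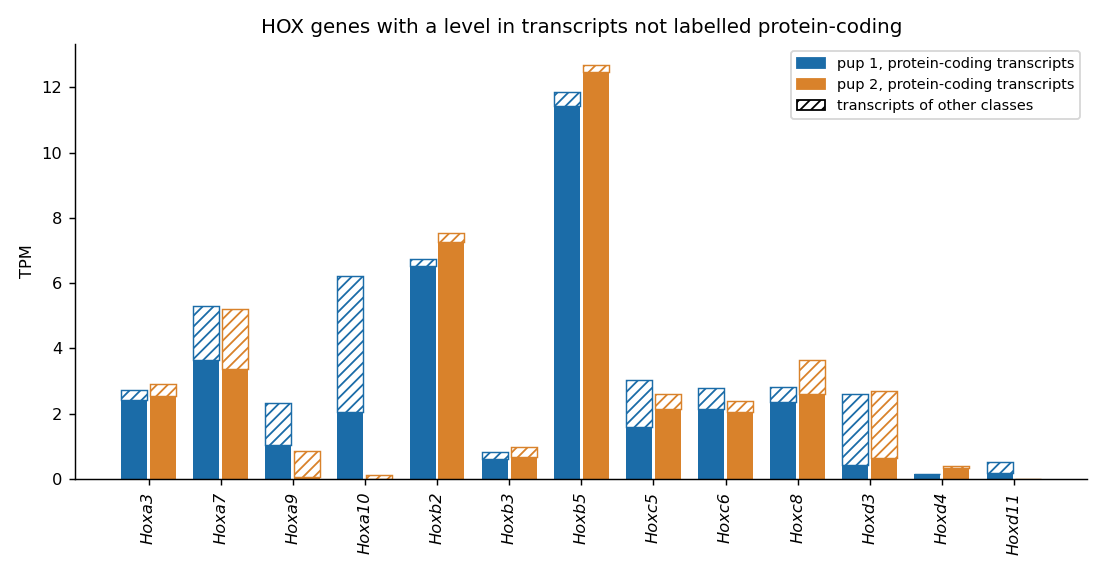
TPM of the HOX genes that had any level in transcripts not labelled protein-coding, with solid bars for protein-coding transcripts and hatched bars stacked on them for all other classes, in pup 1 (left) and pup 2 (right). Hatched bars take most of the level of Hoxd3, Hoxa9 and Hoxa10 in both pups.

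The clusters also hold microRNA genes that act on HOX messages, and 1 of them lies inside a Hoxa9 transcript. The mature sequences (RefSeq, GRCm38.p6) are shown with the seed, bases 2 to 8, in capitals, since the seed groups them by target choice.
miR-10a-5p: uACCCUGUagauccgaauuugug
miR-10b-5p: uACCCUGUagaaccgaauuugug
miR-196a-5p: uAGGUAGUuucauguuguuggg
miR-196b-5p: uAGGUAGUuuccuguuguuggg
miR-10a and miR-10b share the seed ACCCUGU, and miR-196a and miR-196b share AGGUAGU. The mature miR-196b (chromosome 6, 52230129 to 52230150, minus strand) lies in an exon of Hoxa9-204 and Hoxa9-205, on the same strand. All 5 hairpin genes (Mir10a, Mir10b, Mir196a-1, Mir196a-2 and Mir196b) were listed at 0 counts in both pups, in libraries made from RNA longer than 200 nt, which leaves out mature microRNAs.

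Between the first and last member of each cluster lay 40 other annotated genes. Of these 12 had a summed count of 10 or more and 16 had no read. Hoxa11os, on the opposite strand to Hoxa11, had 43.85 and 0 counts, at least 11.7-fold higher in pup 1 against the floor, with an interval that starts at 9.17. Gm53, a noncoding gene between Hoxb13 and Hoxb9, had 41 and 10 counts, a ratio of 3.29 (95% interval 1.62 to 7.36). Gm28230, which overlaps Hoxd3 and Hoxd4, had 0 and 12.41 counts and was the 1 gene of the spans called higher in pup 2. Its counts are a share of the 328 and 275 that it divides with Hoxd3, Hoxd4 and Hoxd3os1. A difference of the gene therefore cannot be told apart from a difference in that division. Among the noncoding genes beside groups 3 and 1, Hoxb3os had a ratio of 0.817 (95% interval 0.653 to 1.02), Hoxd3os1 of 1.15 (95% interval 0.823 to 1.62) and Haglr of 1.19 (95% interval 0.678 to 2.11). Hoxb3os lies on the strand opposite to Hoxb2 and Hoxb3, with which it came to 607.01 and 542 counts together. Its reads may therefore be divided with theirs.

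Of 16 measured noncoding genes listed for the clusters 6 were detected. Hotairm1, which starts beside the head end of cluster A, had by far the highest TPM of them, 20.5 and 26.1. That lead is in the length-corrected level only. Its counts, 176 and 168.37, were close to those of Hoxb3os, 165.28 and 162.21. Hoxaas3 had 154.57 and 85.05 counts, a ratio of 1.46 (95% interval 1.12 to 1.93). Hoxaas2 had 134.10 and 153.05 counts, a ratio of 0.702 (95% interval 0.553 to 0.891), while Hoxb5os had 18 in each. Hoxaas3 overlaps Hoxa3 to Hoxa7 and Hoxaas2 overlaps Hoxa3, each on the opposite strand. The reads of Hoxaas3 and Hoxaas2 may therefore be divided with those genes, which the intervals do not cover. Hottip, at the tail end of cluster A, had 0 counts in both pups, Hotair in cluster C had 1 and 0, and the hairpin gene Mir615 had 0.

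Among the listed partners and regulators of HOX genes, none was over 2-fold apart between the pups. The TALE cofactors, which bind DNA together with HOX proteins, were all detected, 9 of 9, with 0 called and a median ratio of 0.982. The highest were Meis1 with 18.6 and 17.9 TPM, Meis3 with 14.1 and 16.2 TPM, Meis2 with 10.4 and 11.2 TPM and Pbx3 with 8.70 and 9.44 TPM. Pknox1 had 7.80 and 7.70 TPM, Pbx2 5.23 and 4.88 TPM, Pbx4 2.14 and 3.73 TPM, and Pknox2 1.85 TPM in each.

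Of 17 genes listed as inputs to HOX expression 9 were detected and 0 of 12 tested were called. Cdx1 and Cdx2, the intestinal caudal factors, had 98.7 and 96.4 TPM and 28.1 and 31.3 TPM, while Cdx4 and Wnt3a had no read. The retinoic acid enzymes Aldh1a3 (36.5 and 37.4 TPM), Aldh1a2 (30.8 and 31.4 TPM) and Aldh1a1 (29.5 and 30.4 TPM) followed Cdx1. Neither Aldh1a2 nor Aldh1a1 differed from Cdx2 beyond the spread. Cdx2 and Gdf11 are given after their values were seen. Gdf11, a signal known for starting posterior HOX expression in the embryo, had 114 and 136 counts, a ratio of 0.672 (95% interval 0.519 to 0.868).

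Polycomb genes, whose products keep HOX clusters silent, were all detected, 22 of 22, with 0 called and a median ratio of 0.979. Rbbp7 (187 and 189 TPM), Rbbp4 (126 and 139 TPM), Mtf2 (36.6 and 38.9 TPM) and Rnf2 (21.6 and 25.2 TPM) led. Trithorax and demethylase genes, which oppose them, were listed together with Ctcf, which belongs to neither class. Of the 15 genes of that list 14 were detected and 0 of 14 tested were called. The highest were Dpy30 with 123 TPM in each pup, Ctcf with 33.1 and 35.0 TPM, Ash2l with 27.9 and 27.2 TPM, and Psip1 with 25.7 and 25.9 TPM. Gmnn, known to hold HOX proteins in check, had 40.5 and 38.3 TPM.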

How the data were processed

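Total RNA-seq of 2 newborn intestines was analysed from the deposited gene and transcript tables (assembly mm10, annotation GENCODE M4, per the deposited readme). Per the file headers, the authors deposited expected counts, TPM, posterior mean counts and TPM, and the percent of each gene's transcripts. Column names are those of RSEM output, while no source used here names the aligner, the quantifier or the strandedness. Names and positions came from GENCODE M21. The members and lists were chosen with earlier results of these data known. The text names all 38 members, all measured cofactors and noncoding cluster genes, the 4 highest genes of a list, list genes over 2-fold apart, and defining markers at 0. Tissue marker lists are given mostly by counts, and a few named items are not reported here.

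Expected counts were rounded and scaled by TMM (edgeR 4.0.16). Total-count scaling and DESeq2 1.42.0 size factors were alternatives. Ratios have exact Clopper-Pearson 95% intervals (scipy 1.17.1), differences of ratios exact conditional odds ratios. No p-value is given: with 2 pups, an exact sign-flip test cannot go below 0.5. Levels used TPM, contrasts log2(TPM + 0.1), which understates the change of low genes. Library totals were 44568098 and 34797495 counts, and features without an Ensembl gene, at most 0.00122% of counts, were left out. The pups' shared mother gives no batch to compare within.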

Additional observations from a re-analysis of the deposited data

How the results depend on the processing

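The 6 HOX genes over 2-fold higher in pup 1 stayed 6 under total-count scaling, DESeq2 size factors, posterior mean counts and no minimum count, and were 5 at a summed count of 50 or more and 5 by protein-coding transcripts (this last setting was chosen after seeing the data). Detected members numbered 14 to 21 over all thresholds and values tried. Pairs of clusters apart at equal group numbered 13, and 10 to 17 under other pseudocounts, values and filters, 10 of them shared at a pseudocount of 1 TPM. With 1 pup left out they numbered 16 to 22, as agreement of both pups was then not asked for. Without correction for length, cluster D took 10.5% of the HOX level rather than 7.84%. By protein-coding transcripts Hoxb3 over Hoxd3 turned from -1.43 to 0.22 (log2). Leaving out Hoxb9 gave no value for cluster B in groups 9 to 13, since no read was left. No paired analysis was possible because there is 1 group. The depth limits genes of groups 10 to 13 in pup 2, where all but Hoxa10 had at most 4 counts. With 1 library per pup, differences between animals cannot be told apart from those between dissections or libraries.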

Other observations

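Of the 7 tested genes that flank the clusters, 0 were over 2-fold apart between the pups. Skap2, before the head end of cluster A, had 32.2 and 31.5 TPM, and Hibadh, beyond Evx1 at its tail end, had 43.9 and 41.5 TPM. Mtx2, beside the head end of cluster D, had 74.4 and 67.1 TPM, and Lnpk, beyond its tail end, had 9.04 and 10.4 TPM. The homeobox gene Evx1, next to the tail end of cluster A, had 3 and 1 counts, and Evx2, next to that of cluster D, had 0 in both pups. Calcoco1, beside cluster C, had 11.5 and 11.4 TPM.

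Of 16 tested homeobox genes outside the clusters that are known from the gut 2 were over 2-fold apart, both higher in pup 2. Barx1 had 11 and 59 counts (6.69-fold, 95% interval 3.48 to 14.1) and Nkx2-5 had 3 and 18 counts (7.48-fold, 95% interval 2.18 to 39.7). Both are known from stomach and pyloric mesenchyme. Nkx6-3, a gene of the gastric antrum that was picked out after its value was seen, had 102 and 181 counts (2.21-fold higher in pup 2, 95% interval 1.73 to 2.85). Isx, an epithelial factor of the intestine, had 56.2 and 61.9 TPM, and Nkx2-3, of its mesenchyme, had 43.6 and 45.7 TPM.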
